A study of Mus musculus with 8 samples.

Results

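The proteasome genes of mouse EMT6 mammary tumours were compared between animals given GrB-Fc-KS49 and animals given IgG. GrB-Fc-KS49 is, per the series title, a human fusion protein that holds granzyme B and is directed at EMP2, a cell surface protein. The genes were chosen by name. They are the protein-coding genes named Psma to Psmg followed by a number, without the 3 interferon-induced catalytic subunits Psmb8, Psmb9 and Psmb10, which left 48 of the 26709 genes in the deposited table. Of the 48, 16 encode core particle subunits, 17 regulatory particle subunits, 6 other activators or an inhibitor, 4 chaperones of core assembly and 3 chaperones of base assembly, while Psmc3ip and Psme3ip1 only share the name pattern.

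Each group held 4 tumours. Both groups were EMT6 tumours in syngeneic Balb/c mice of genotype WT, dosed 3 times within 10 days, and differed in the labels only by the agent given. EMT6 is 1 established mammary carcinoma line, and the labels give neither the age or sex of the animals nor whether every tumour came from its own animal. The p-values then measure only the spread between these samples, which may be technical. The titles of GrB-Fc-KS49 replicate 3 and IgG replicate 1 end in U, which the labels do not explain.

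The proteasome degrades proteins that carry ubiquitin chains. Its core particle is a barrel of stacked rings in which alpha subunits form the gate and beta subunits hold the peptidase sites. Its regulatory particle, built from a base with a ring of ATPases and a lid, binds, deubiquitinates, unfolds and feeds the substrate into the core, and in tumour cells and leukocytes this machinery also makes peptides for class I antigen presentation.

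Libraries held 74.6 to 80.9 M estimated counts in GrB-Fc-KS49 tumours and 73.98 to 82.6 M in IgG tumours, where M is 1000000. Levels are counts per M (CPM) after TMM scaling, edgeR's correction for differences in composition. The labels call the sample epithelial tumour cells, and the epithelial keratin Krt8 was at 391 to 631 CPM in treated and 414 to 468 CPM in control tumours, the adhesion gene Epcam at 2.73 to 16.02 CPM in treated and 3.19 to 4.46 CPM in control tumours, and the epithelial junction gene Cldn7 at 0.113 to 0.439 CPM in treated and 0.121 to 0.237 CPM in control tumours, near 0. The GrB-Fc-KS49 tumours differed among themselves in the summed markers of T cells (5.19 to 55.97 CPM in GrB-Fc-KS49 tumours and 2.42 to 6.29 CPM in IgG tumours, 9 of 9 markers with a higher mean), interferon gamma response (423 to 3139 CPM in GrB-Fc-KS49 tumours and 439 to 1109 CPM in IgG tumours, 10 of 10), macrophages (1443 to 3115 CPM in GrB-Fc-KS49 tumours and 1109 to 1449.5 CPM in IgG tumours, 7 of 8) and skeletal muscle (41.7 to 2437 CPM in GrB-Fc-KS49 tumours and 43.4 to 203 CPM in IgG tumours, 9 of 9). GrB-Fc-KS49 replicate 1 had the highest sum of each of these 4 lists, while skin markers reached 2016 CPM in GrB-Fc-KS49 replicate 2 and adipocyte markers 459.7 CPM in replicate 3, against at most 16.3 and 87.5 CPM in IgG tumours. No listed marker was at 0 in all libraries. The part of these cell types in the results was not tested, and in bulk tumours fewer cells of a type and less RNA per cell cannot be told apart.

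Core particle genes had higher mean levels in GrB-Fc-KS49 tumours, whereas regulatory particle genes divided about evenly between higher and lower. All 15 core genes that passed the filter on low counts had a log2 fold change above 0, with a median of 0.30 and a range of 0.028 to 0.44. Of the 17 regulatory particle genes, 8 were above 0, with a median of -0.003 and a range of -0.20 to 0.28. The difference of the 2 medians was 0.30. Over all 19718 genes tested, 53.2% were above 0 and the median was 0.032. The core median stayed between 0.22 and 0.36 under the other scalings, filters, tools and treatments of the U libraries, but was -0.099 when each library's trends with transcript length and GC content were removed. The regulatory particle median lay between -0.021 and 0.056 under the same settings, on both sides of 0, and was -0.15 with those trends removed.

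No gene passed an adjusted p under 0.05 in edgeR's quasi-likelihood test with Benjamini-Hochberg adjustment (0.0% of all genes tested), and the smallest adjusted p, over all genes and among the proteasome genes alike, was 0.0619. At an unadjusted p under 0.05, 19 of the 47 tested proteasome genes were higher and 3 lower, where 35.1% of all genes tested passed, 17.3% higher and 17.8% lower. The 4 libraries of each group did not overlap for 15 proteasome genes that were higher and 3 that were lower, against 10.3% and 15.3% of all genes, or 25.7% in either direction. By class, 10 of 15 core genes and 3 of 17 regulatory particle genes were higher at that p, and 1 regulatory particle gene was lower. That share varied with transcript length. Of all tested genes, 54.0% under 1000 bases, 30.3% at 1000 to 2000 bases and 11.5% at 2000 to 4000 bases were higher. Core genes gave 5 of 5, 4 of 8 and 1 of 2 in these ranges. Regulatory particle genes gave 3 of 12 at 1000 to 2000 bases and 0 of 5 at 2000 to 4000 bases. At an adjusted p under 0.1, which 25.1% of all genes passed in edgeR's test, 15 proteasome genes passed, 12 of them higher. DESeq2 at an adjusted p under 0.05 passed 23.9% of all genes and 15 proteasome genes, of which 12 rose and 3 fell by that test. By class, DESeq2 passed 5 of 15 core genes and 4 of 17 regulatory particle genes. With limma-voom and sample weights 6.43% of all genes passed, and Psmb1, Psmb5 and Psme4 among them. Without GrB-Fc-KS49 replicate 4, 17.1% of all genes passed in edgeR's test and 6 proteasome genes, Psmb1, Psmb5, Psmd9 and Psmg4 higher and Psme3 and Psme4 lower. The calls thus depended on the tool and on single libraries.

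**Figure D1:**
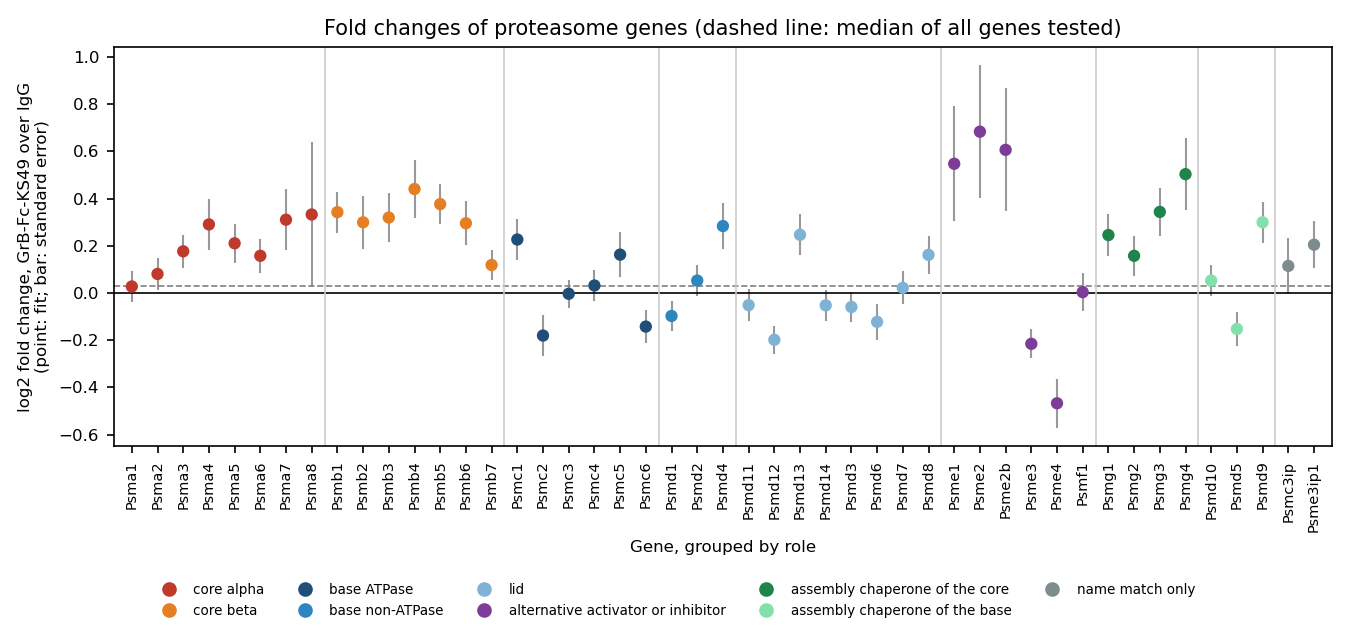
Log2 fold change of each tested proteasome gene, GrB-Fc-KS49 over IgG, with its standard error, grouped by role. All 15 core genes lie above 0, the 17 regulatory particle genes lie on both sides of it, and Psme2 and Psme4 mark the 2 ends; with length and GC trends removed the core median was -0.099.

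Summed over its genes, the core particle was at 2277, 1838, 1854 and 1792 CPM over GrB-Fc-KS49 replicates 1 to 4, against 1582, 1671, 1614 and 1607 CPM over IgG replicates 1 to 4. Every GrB-Fc-KS49 tumour was above every IgG tumour, with means of 1940.2 ± 226.1 CPM and 1618 ± 37.8 CPM (SD, n = 4 each). The regulatory particle sum was 2796, 2509, 2589 and 2609.9 CPM over GrB-Fc-KS49 replicates 1 to 4, against 2580.1, 2663, 2558 and 2518 CPM over IgG replicates 1 to 4, and the groups overlapped, at 2626 ± 121.4 CPM and 2579.7 ± 61.0 CPM (SD, n = 4 each). The mean log2 level of core genes less that of regulatory particle genes, set to 0 at the IgG mean, was 0.36, 0.26, 0.16 and 0.13 in GrB-Fc-KS49 replicates 1 to 4, against -0.035, 0.036, 0.001 and -0.001 in IgG replicates 1 to 4. Every gene has the same weight in these means, also Psma8 at under 1 CPM. Relative to its IgG mean, Psma8 was at 0.87 and -0.22 in GrB-Fc-KS49 replicates 2 and 3 and at 0.54 in IgG replicate 2. The core less regulatory particle difference was largest in GrB-Fc-KS49 replicate 1. Without that tumour the core median was 0.18, the regulatory particle median -0.032 and their difference 0.21. With length and GC trends removed in all 8 libraries, the difference of the medians was 0.051.

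**Figure D2:**
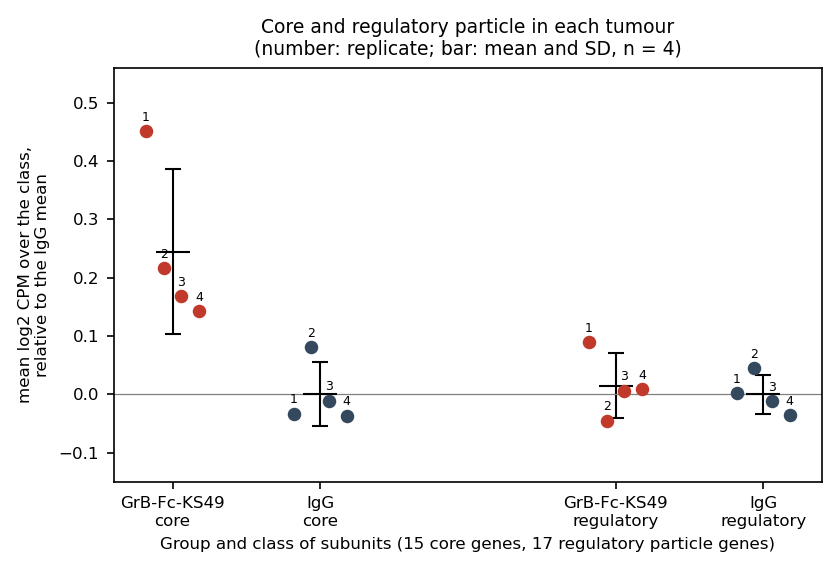
Mean log2 level of the core and the regulatory particle genes in each tumour relative to the IgG mean, with GrB-Fc-KS49 tumours at the left. Core values run from 0.14 to 0.45 in GrB-Fc-KS49 tumours and from -0.037 to 0.081 in IgG tumours, while regulatory particle values overlap between the groups. Length and GC trends are not removed from these values. With them removed, the core median log2 fold change was -0.099 and its difference from the regulatory particle median 0.051.

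The 7 tested beta subunit genes of the core had a median log2 fold change of 0.32, and 6 of them were higher without overlap between groups, against 10.3% of all genes tested. With length and GC trends removed, 5 of the 7 were below 0 and the median was -0.12. Psmb5 encodes the chymotrypsin-like peptidase and lies on chromosome 14, 54851576 to 54855479, minus strand of GRCm39 (ENSMUSG00000022193), the build of all gene positions given here. It was at 71.3, 56.5, 67.6 and 59.8 CPM over GrB-Fc-KS49 replicates 1 to 4, against 51.6, 50.4, 47.2 and 47.4 CPM over IgG replicates 1 to 4. Every treated tumour was above every control, by a log2 fold change of 0.38 ± 0.086 (SE; edgeR adjusted p = 0.0619). Psmb6, the caspase-like peptidase, was at 135, 101, 118 and 107 CPM in the GrB-Fc-KS49 tumours, against 96.3, 96.5, 88.9 and 94.3 CPM in the IgG tumours, again without overlap, at a log2 fold change of 0.30 ± 0.094 (SE; edgeR adjusted p = 0.0732). Psmb7, the trypsin-like peptidase, was at 148, 129, 130.3 and 137 CPM in the GrB-Fc-KS49 tumours, against 123, 123, 129 and 126 CPM in the IgG tumours. Its groups met at 129 CPM and its log2 fold change was 0.12 ± 0.065 (SE; edgeR adjusted p = 0.221), or 0.074 without GrB-Fc-KS49 replicate 1. Differences between the 3 catalytic genes were not tested. Reads of Psmb7 cannot be told from those of Nek6 on the opposite strand where the 2 genes overlap, because no source says whether the counting used strand.

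Psmb1, a structural beta subunit (chromosome 17, 15695283 to 15720013, minus strand), was at 292, 227, 249.1 and 234 CPM in the GrB-Fc-KS49 tumours, against 197.8, 205, 193 and 194 CPM in the IgG tumours. Its log2 fold change was 0.34 ± 0.087 (SE; edgeR adjusted p = 0.0619), and the highest control lay below the lowest treated tumour. Psmb4, which closes the beta ring during assembly, had the widest log2 fold change of the core at 0.44 ± 0.12 (SE; 263 ± 49.1 CPM in treated and 194 ± 9.50 CPM in control tumours, SD, n = 4 each, edgeR adjusted p = 0.0633). The Psmb4 value was 0.075 with length and GC trends removed. Psmb2 and Psmb3, both structural subunits, were at 126 to 179.9 CPM in treated and 111 to 122 CPM in control tumours and at 51.8 to 71.5 CPM in treated and 45.5 to 51.5 CPM in control tumours, without overlap, and the log2 fold change of Psmb2 was 0.30, or 0.18 without GrB-Fc-KS49 replicate 1. Psmb11, the thymic subunit, did not pass the filter and was at 0.050 to 0.080 CPM in GrB-Fc-KS49 tumours, against 0 to 0.025 CPM in IgG tumours. Without GrB-Fc-KS49 replicate 1, Psmb5, Psmb1 and Psmb4 had log2 fold changes of 0.32, 0.26 and 0.30 and edgeR adjusted p of 0.0485, 0.0414 and 0.0452. In that fit 6.32% of all genes passed, and Psmg4 and Psme4 were the other proteasome genes that did.

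Many proteasome genes are activated by NFE2L1, a transcription factor that binds antioxidant response elements. The motif TGACNNNGC, searched on both strands in the 250 bases before each start in RefSeq's GRCm38.p6 promoters, was in 5 of the 44 windows of 40 proteasome genes, 11.4%, against 10.2% of all 32851 windows. The genes were Psmb5, Psmb6, Psmc6, Psmd12 and Psmd9. The motif was chosen after the values were seen. The windows of Psmb5 (chr14:54617996-54618245, minus strand), Psmb6 (chr11:70525107-70525356, plus strand) and Psmd9 (chr5:123227940-123228189, plus strand) are shown because their genes had higher levels without overlap, and that of Psmd12 (chr11:107479278-107479527, plus strand) because its gene was lower without overlap. They are written 5′ to 3′ on the gene's strand, with the match in capitals; in Psmd12 it is on the other strand.
Psmb5: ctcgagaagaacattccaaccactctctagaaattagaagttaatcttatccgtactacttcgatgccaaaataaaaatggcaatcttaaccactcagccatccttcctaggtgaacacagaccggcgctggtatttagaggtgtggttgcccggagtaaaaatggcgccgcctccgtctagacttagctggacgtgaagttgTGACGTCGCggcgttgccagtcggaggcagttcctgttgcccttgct
Psmb6: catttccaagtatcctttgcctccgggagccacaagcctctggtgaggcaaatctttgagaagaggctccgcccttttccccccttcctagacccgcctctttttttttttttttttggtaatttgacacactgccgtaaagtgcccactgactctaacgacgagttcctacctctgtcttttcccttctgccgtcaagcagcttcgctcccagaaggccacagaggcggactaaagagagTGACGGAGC
Psmd9: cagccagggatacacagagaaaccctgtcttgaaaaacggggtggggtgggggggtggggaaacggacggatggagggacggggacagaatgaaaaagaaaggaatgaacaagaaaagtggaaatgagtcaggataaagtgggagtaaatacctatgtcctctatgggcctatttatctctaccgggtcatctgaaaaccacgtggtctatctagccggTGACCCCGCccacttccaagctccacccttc
Psmd12: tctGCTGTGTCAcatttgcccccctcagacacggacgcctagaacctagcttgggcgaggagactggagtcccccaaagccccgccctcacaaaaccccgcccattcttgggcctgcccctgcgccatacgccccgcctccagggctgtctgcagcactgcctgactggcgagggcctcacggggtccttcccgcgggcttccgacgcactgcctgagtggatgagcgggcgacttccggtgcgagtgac
By class, the match was in 2 of 12 core genes with a window, 2 of 14 regulatory particle genes and 1 of 14 other genes. CCAAT, the letters bound by NF-Y and found on either strand, was in 15 of the 44 windows, 34.1%, against 33.8% of all windows, with 7 of 12 core genes and 4 of 14 regulatory particle genes. The core of the interferon-stimulated response element, GAAA and GAAA with 2 bases between them on either strand, was in 3 of the 44 windows, those of Psmb3, Psmd4 and Psmd9, 6.82% against 2.98% of all windows. A match describes letters in the window and says nothing of binding.

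The 8 alpha subunit genes had a median log2 fold change of 0.19, and 3 were higher without overlap between groups, against 10.3% of all genes tested. With length and GC trends removed, 4 of the 8 were below 0 and the median was -0.022. Psma4, whose product is part of the gate, was at 157, 120.98, 121.3 and 112 CPM over GrB-Fc-KS49 replicates 1 to 4, against 102, 109.8, 101 and 105 CPM over IgG replicates 1 to 4. Its log2 fold change was 0.29 ± 0.11 (SE; edgeR adjusted p = 0.0973), or 0.17 without GrB-Fc-KS49 replicate 1 and 0.032 with trends removed. Psma5, an alpha ring subunit, was at 132, 114, 111 and 104 CPM in the GrB-Fc-KS49 tumours, against 94.9, 103, 102 and 97.9 CPM in the IgG tumours, and its groups were apart by a smaller distance, at 0.21 ± 0.083 (SE; edgeR adjusted p = 0.112), or 0.14 without GrB-Fc-KS49 replicate 1. The pseudogene row Psma5-ps, which may share reads with it, was at 108, 124, 113 and 105 CPM in the GrB-Fc-KS49 tumours, against 109.8, 121.4, 112 and 109.96 CPM in the IgG tumours, and the sum of both rows overlapped between groups (239, 238, 224 and 209 CPM against 205, 225, 213 and 208 CPM). The Psma5 value is therefore uncertain.

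Psma3, the other alpha subunit without overlap, was at 37.4 to 44.6 CPM in treated and 34.9 to 36.3 CPM in control tumours. Psma7, another alpha subunit, was at 282, 224, 192 and 192 CPM in the GrB-Fc-KS49 tumours, against 166, 175, 194 and 183 CPM in the IgG tumours, so that IgG replicate 3 was above GrB-Fc-KS49 replicates 3 and 4. Its log2 fold change was 0.31, or 0.18 without GrB-Fc-KS49 replicate 1. Psma1 (log2 fold change 0.028 ± 0.066, SE), Psma2 (0.081 ± 0.067) and Psma6 (0.16 ± 0.071) had overlapping groups, and Psma2 shares bases with AW209491 on its own strand. Psma8, the testis form of the subunit, stood at 0.309 to 0.666 CPM in treated and 0.273 to 0.527 CPM in control tumours.

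The 6 ATPase genes of the base, whose products form the ring that unfolds substrates, had a median log2 fold change of 0.015. Psmc1 had the smallest p of those that were higher, at 212, 165, 185 and 177 CPM over GrB-Fc-KS49 replicates 1 to 4, against 155, 165, 154 and 158 CPM over IgG replicates 1 to 4. IgG replicate 2 and GrB-Fc-KS49 replicate 2 were level, and the log2 fold change was 0.23 ± 0.085 (SE; edgeR adjusted p = 0.101), or 0.018 with trends removed. Psmc5 was at 150.3, 110.1, 127 and 127 CPM in the GrB-Fc-KS49 tumours, against 118, 115, 109 and 118 CPM in the IgG tumours, with overlap (log2 fold change 0.16 ± 0.094, SE), and the log2 fold change was 0.079 without GrB-Fc-KS49 replicate 1 and -0.15 with trends removed. Psmc2 went the other way, at 148, 160.2, 179 and 174 CPM in the GrB-Fc-KS49 tumours, against 190.6, 206, 178 and 176 CPM in the IgG tumours. In 3 of the 4 treated tumours Psmc2 was below every control, and its log2 fold change was -0.18 ± 0.085 (SE; edgeR adjusted p = 0.162). Psmc6 was at 106, 116, 104 and 110.1 CPM in the GrB-Fc-KS49 tumours, against 111, 119.9, 131 and 119.9 CPM in the IgG tumours, with overlap and a log2 fold change of -0.14 ± 0.071 (SE). Psmc3 (-0.003 ± 0.060) and Psmc4 (0.032 ± 0.067) were near 0, and the sign of Psmc3 changed with the settings; Psmc3 shares bases with Slc39a13 on the opposite strand, so its value is uncertain.

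In the rest of the base, Psmd4, a ubiquitin receptor, was at 219.96, 161, 180.1 and 175 CPM in the GrB-Fc-KS49 tumours, against 149.6, 155, 149 and 151 CPM in the IgG tumours. No treated tumour was as low as a control, and the log2 fold change was 0.28 ± 0.096 (SE; edgeR adjusted p = 0.0834), or 0.19 without GrB-Fc-KS49 replicate 1 and -0.089 with trends removed. Psmd1, a scaffold of the base, was at 176, 163, 172 and 180.1 CPM in the GrB-Fc-KS49 tumours, against 185, 196, 179 and 179 CPM in the IgG tumours (log2 fold change -0.097 ± 0.063, SE), with overlap, and the overlapping gene Gm21972 lies on its strand. Psmd2, the other scaffold, was at 272 to 316 CPM in treated and 274 to 286 CPM in control tumours, likewise with overlap.

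The 8 lid genes had a median log2 fold change of -0.051, with 3 above 0 and 5 below. Psmd12, a scaffold subunit of the lid, was at 93.3, 92.0, 94.8 and 97.1 CPM over GrB-Fc-KS49 replicates 1 to 4, against 113, 111, 106 and 103 CPM over IgG replicates 1 to 4. All 4 treated tumours were below the lowest control, by a log2 fold change of -0.20 ± 0.059 (SE; edgeR adjusted p = 0.0667). Psmd13, a structural lid subunit, was at 127, 100.2, 112 and 101 CPM in the GrB-Fc-KS49 tumours, against 95.8, 95.6, 89.5 and 90.3 CPM in the IgG tumours, with every treated tumour above every control and a log2 fold change of 0.25 ± 0.087 (SE; edgeR adjusted p = 0.0892). That change was 0.032 with length and GC trends removed. The pseudogene Gm15542, in the same interval and on the same strand as Psmd13, had a mean of 11480 counts, against 8022.6 for Psmd13, so the split of reads between them is uncertain.

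Psmd8, another lid subunit, was at 201, 173, 172 and 179.7 CPM in the GrB-Fc-KS49 tumours, against 159.97, 178, 160.3 and 150.03 CPM in the IgG tumours, with overlap and a log2 fold change of 0.16 ± 0.081 (SE; edgeR adjusted p = 0.183), or 0.11 without GrB-Fc-KS49 replicate 1. Psmd6 was lower on average, at 75.6, 86.0, 91.7 and 83.8 CPM in the GrB-Fc-KS49 tumours, against 92.2, 95.9, 94.2 and 84.6 CPM in the IgG tumours, with overlap (log2 fold change -0.12 ± 0.077, SE, or -0.073 without GrB-Fc-KS49 replicate 1). Psmd14, the deubiquitinase of the lid, and its partner Psmd7 had log2 fold changes of -0.052 ± 0.066 and 0.022 ± 0.070 (SE). Psmd3 and Psmd11, the remaining structural subunits, were at -0.059 ± 0.062 and -0.051 ± 0.068 (SE), and all 4 of these genes had overlapping groups.

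**Figure D3:**
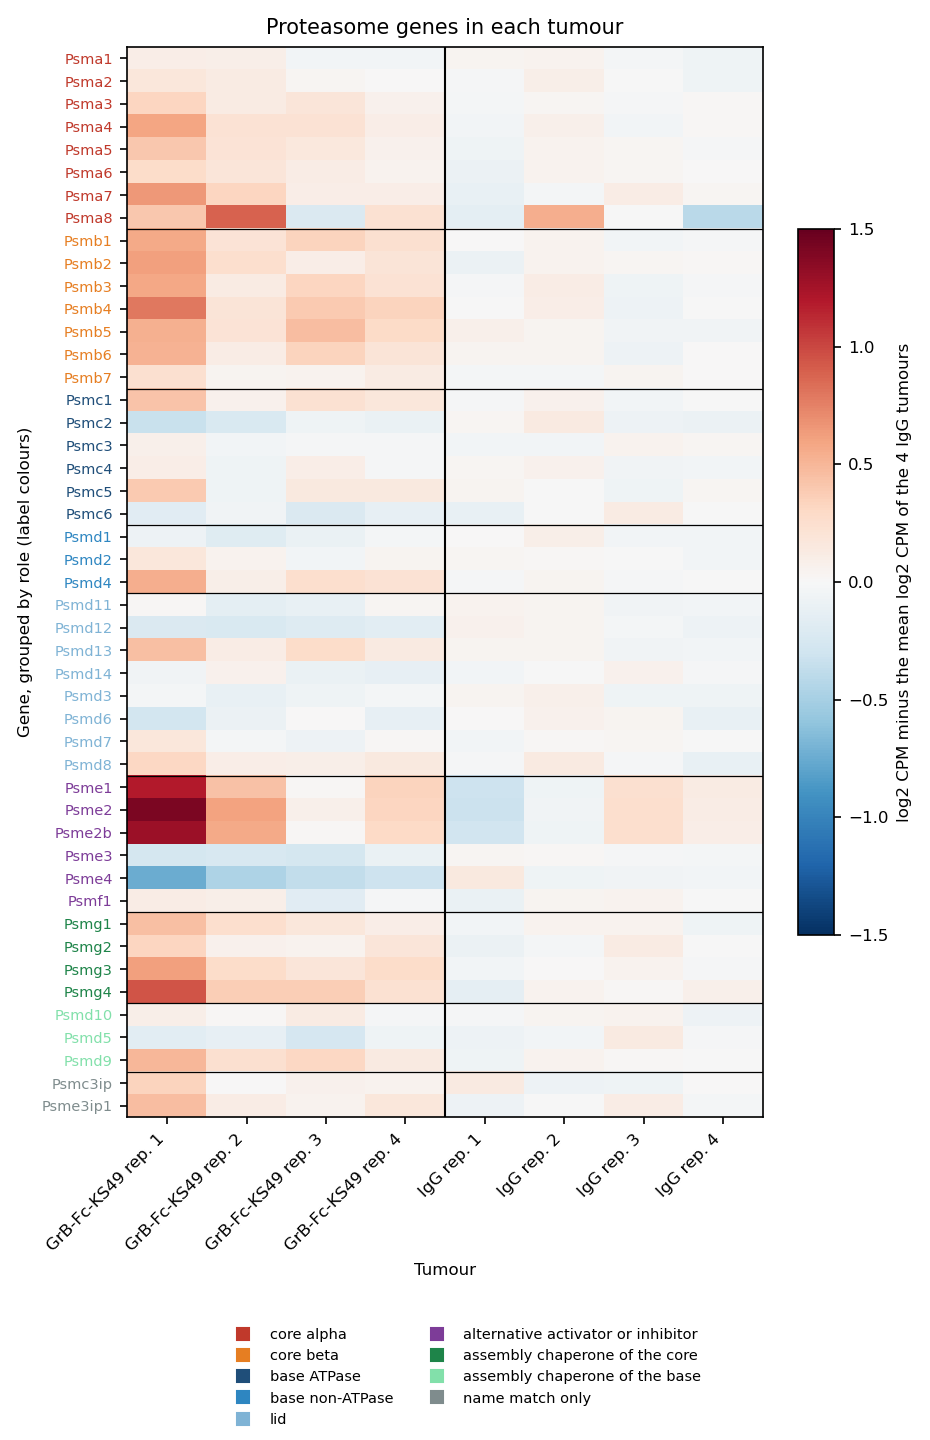
Log2 level of each proteasome gene in each tumour relative to the mean of the IgG tumours, with GrB-Fc-KS49 tumours at the left and genes ordered by role. GrB-Fc-KS49 replicate 1 holds the strongest colours, above the controls in the core, in Psme1, Psme2 and Psme2b and below them in Psme4.

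The other activators held both ends of the log2 fold changes. Psme4 encodes PA200, a large nuclear cap that opens the core and is known for the breakdown of acetylated histones (chromosome 11, 30721726 to 30830361, plus strand). It was at 68.1, 83.1, 88.4 and 92.5 CPM over GrB-Fc-KS49 replicates 1 to 4, against 127, 109.7, 110.3 and 112 CPM over IgG replicates 1 to 4. Every GrB-Fc-KS49 tumour was below every IgG tumour, with a log2 fold change of -0.47 ± 0.10 (SE; edgeR adjusted p = 0.0619), a fold of 0.724. Psme3, the gene of the nuclear PA28 gamma cap, was at 109, 110.5, 109 and 122 CPM in the GrB-Fc-KS49 tumours, against 133, 133, 129 and 128 CPM in the IgG tumours, also without overlap (log2 fold change -0.21 ± 0.062, SE; edgeR adjusted p = 0.0651). Without GrB-Fc-KS49 replicate 1 the log2 fold change of Psme4 was -0.38 (edgeR adjusted p = 0.0366).

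Psme1 and Psme2 encode the cytoplasmic, interferon-inducible PA28 cap. Psme1 (chromosome 14, 55815580 to 55818986, plus strand) was at 431, 256, 190.7 and 238 CPM over GrB-Fc-KS49 replicates 1 to 4, against 153, 180.2, 224 and 206 CPM over IgG replicates 1 to 4. The groups overlapped and GrB-Fc-KS49 replicate 1 was far above the others (log2 fold change 0.55 ± 0.24, SE; edgeR adjusted p = 0.148). Psme2 was at 99.9, 56.9, 39.4 and 46.9 CPM in the GrB-Fc-KS49 tumours, against 29.9, 36.1, 44.7 and 40.6 CPM in the IgG tumours, the largest log2 fold change of the 47 tested genes at 0.68 ± 0.28 (SE; edgeR adjusted p = 0.127). Psme2b, a near copy of Psme2 on chromosome 11, 48836181 to 48837017, minus strand, was at 355, 217, 147 and 179 CPM in the GrB-Fc-KS49 tumours, against 119.97, 139.8, 174 and 156 CPM in the IgG tumours. Psme2b lies within Gm12185 on the same strand. Because the counting may divide reads between Psme2 and Psme2b, the copies were also summed, to 455, 274, 187 and 226 CPM in the GrB-Fc-KS49 tumours, against 149.9, 176, 219 and 197 CPM in the IgG tumours. The sum averaged 285 ± 118 CPM against 185 ± 29.3 CPM (SD, n = 4 each), a ratio of 1.54, with overlap.

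The levels of these 3 genes were set beside the interferon gamma markers. Their log2 fold changes without GrB-Fc-KS49 replicate 1 were 0.26 for Psme1, 0.34 for Psme2 and 0.30 for Psme2b. After removal of length and GC trends they were 0.089, 0.20 and 0.17, in the same order. The marker sum of the interferon gamma response was 3139, 1651, 423 and 914 CPM over GrB-Fc-KS49 replicates 1 to 4, against 439, 765, 1109 and 834 CPM over IgG replicates 1 to 4, and in both groups the tumour with the highest sum was also the one with the highest Psme1 and Psme2. Across the 4 treated tumours Psme2 and the marker sum had the same order. The part of the interferon response in these levels was not tested. Psmf1, an inhibitor of the core, had 26.9 to 32.5 CPM in treated and 28.2 to 31.4 CPM in control tumours and a log2 fold change of 0.004 ± 0.080 (SE).

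All 4 chaperone genes of core assembly were above 0, with a median log2 fold change of 0.29, and 3 were higher without overlap between groups, against 10.3% of all genes tested. With length and GC trends removed all 4 were below 0, with a median of -0.13. Psmg3, which with Psmg4 helps to build the alpha ring, was at 24.5, 19.4, 18.2 and 19.3 CPM over GrB-Fc-KS49 replicates 1 to 4, against 15.6, 16.1, 16.6 and 15.9 CPM over IgG replicates 1 to 4 (log2 fold change 0.34 ± 0.10, SE; edgeR adjusted p = 0.0667). Psmg4 was at 36.3, 24.5, 24.5 and 22.2 CPM in the GrB-Fc-KS49 tumours, against 17.2, 19.6, 19.2 and 19.9 CPM in the IgG tumours, with GrB-Fc-KS49 replicate 1 well above the other treated tumours, and the log2 fold change was 0.50 ± 0.15 (SE), or 0.32 without that tumour. Psmg1, a partner of Psmg2 in the same step, was at 20.4 to 26.03 CPM in treated and 18.2 to 19.8 CPM in control tumours without overlap, and Psmg2 was at 24.6 to 29.5 CPM in treated and 22.2 to 25.8 CPM in control tumours with overlap.

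The 3 chaperone genes of base assembly had log2 fold changes on both sides of 0. Psmd9 was at 38.4, 32.2, 33.8 and 29.8 CPM over GrB-Fc-KS49 replicates 1 to 4, against 26.1, 28.3, 27.5 and 27.1 CPM over IgG replicates 1 to 4, with every treated tumour above every control (log2 fold change 0.30 ± 0.087, SE; edgeR adjusted p = 0.0651). Psmd5 was at 106, 109, 99.7 and 113 CPM in the GrB-Fc-KS49 tumours, against 113, 115, 130.3 and 117 CPM in the IgG tumours, with a log2 fold change of -0.15 ± 0.072 (SE), and GrB-Fc-KS49 replicate 4 was above IgG replicate 1. Psmd10 was at 44.4 to 49.2 CPM in treated and 42.8 to 46.7 CPM in control tumours. The name matches Psmc3ip, a factor of meiotic recombination, and Psme3ip1, a partner of Psme3, had log2 fold changes of 0.12 ± 0.12 and 0.20 ± 0.099 (SE), both with overlap.

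The differences ran with transcript length. Core transcripts had a median length of 1165 bases and regulatory particle transcripts 1785 bases, against 2906.5 bases for the 14486 tested genes with a length, by the protein-coding transcript with the longest coding part in GENCODE M21. Over those genes the median log2 fold change was 0.39 for transcripts under 1000 bases, 0.20 at 1000 to 2000 bases, -0.011 at 2000 to 4000 bases and -0.20 from 4000 bases. At 1000 to 2000 bases, 8 core genes had a median of 0.25 and 12 regulatory particle genes one of 0.027, and below 1000 bases 5 core genes had 0.31. At 2000 to 4000 bases, 2 core genes, Psma2 and Psma3, had a median of 0.13 and 5 regulatory particle genes one of -0.059. The class of a gene depends on the transcript chosen for it. Set beside the genes of the same length, the core median was lower below 1000 bases and higher in the other 2 classes. The regulatory particle medians of 0.027 and -0.059 were below those of the genes of the same length.

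**Figure D4:**
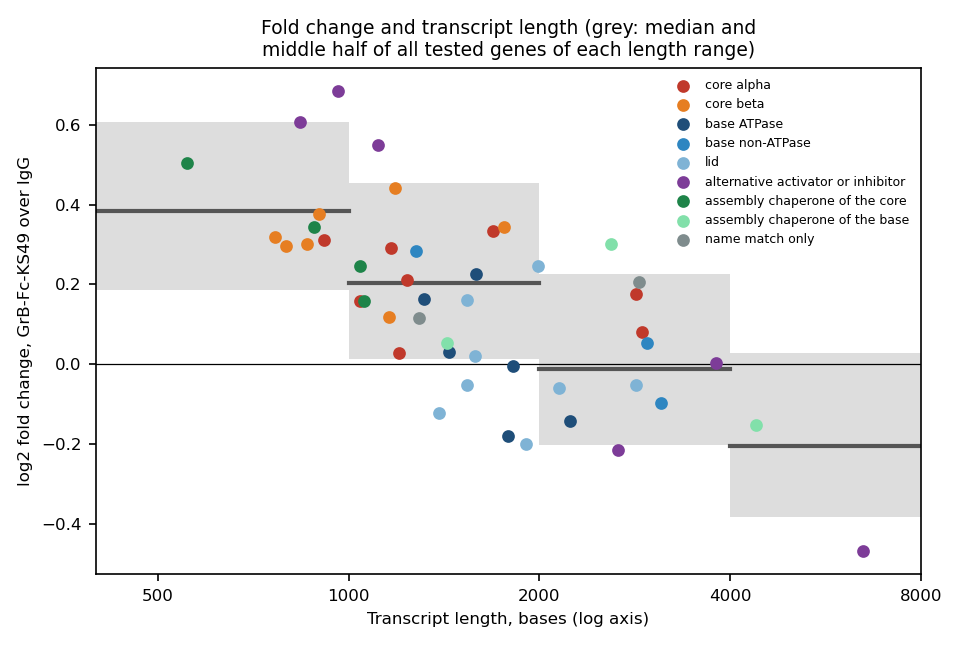
Log2 fold change of each tested proteasome gene, GrB-Fc-KS49 over IgG, against the length of its transcript on a log axis, with the median and quartiles of the tested genes in each length class. Those medians run from 0.39 under 1000 bases to -0.20 from 4000 bases, and of the 15 core genes 5 lie under 1000 bases, 8 at 1000 to 2000 and 2 at 2000 to 4000.

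Across 45 tested proteasome genes other than the name matches, the Spearman correlation of log2 fold change with transcript length was -0.69, and across 14486 genes it was -0.45. It was -0.27 within the core and -0.37 within the regulatory particle, over 15 and 17 genes that share the same 8 libraries and are not independent. By library, the correlation of log2 level with length, relative to the mean over libraries, was -0.43, -0.30, -0.17 and -0.06 in GrB-Fc-KS49 replicates 1 to 4, against 0.39, 0.39, 0.34 and 0.40 in IgG replicates 1 to 4. The trend divides the 8 libraries as the treatment does, so the 2 cannot be told apart.

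When each library's trends with length and GC content were removed, the median of the 14486 genes with a length was -0.073, against 0.008 for the same genes without that step. The core median was then -0.099, with 6 of 15 genes above 0, and the regulatory particle median -0.15, with 2 of 17 above 0, where 40.2% of the 14486 genes were above 0. The difference of the 2 class medians was 0.051. At an unadjusted p under 0.05, 3 proteasome genes were higher, all in the core, and 11 lower, against 7.37% and 17.9% of the 14486 genes. The 3 were Psma2 (0.19), Psma3 (0.26) and Psmb1 (0.23). Their assigned transcripts, at 2911, 2846 and 1758 bases, were the longest of the tested core genes. These values depend on the transcript chosen for each gene. Psmb5 was at -0.099, on the other side of 0. The lower log2 fold changes stayed below 0 for Psme4 (-0.24), Psme3 (-0.27) and Psmd12 (-0.28).

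Levels can be compared between genes only per length. In CPM per kilobase of that transcript, 14 core genes without Psma8 and Psmb11 had a median of 114 in GrB-Fc-KS49 tumours and 102 in IgG tumours, and the 17 regulatory particle genes 92.7 and 87.2. Core chaperones had medians of 23.99 and 20.3 and base chaperones 24.3 and 27.0, below both particles. The core genes ran from 14.2 to 243 in GrB-Fc-KS49 tumours and from 12.5 to 196 in IgG tumours, a wider range than the 44.4 to 147 and 46.1 to 145 of the regulatory particle. These values depend on the transcript chosen for each gene.

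**Figure D5:**
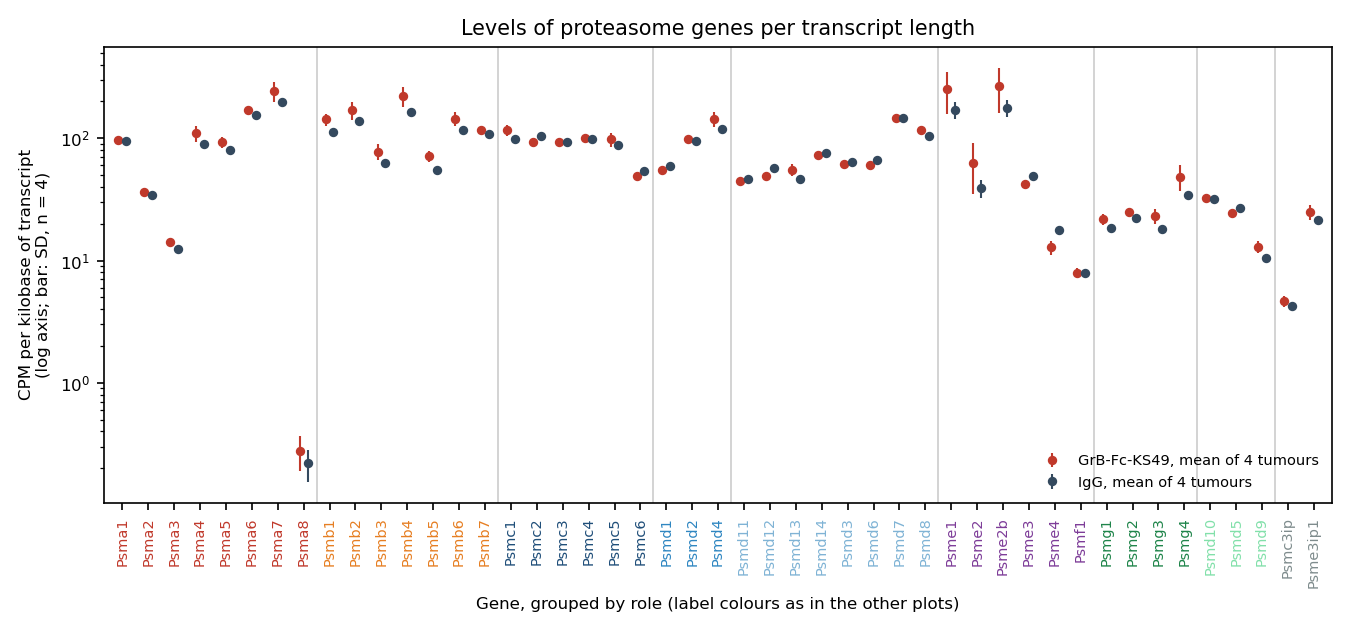
Mean level of each proteasome gene in CPM per kilobase on a log axis, GrB-Fc-KS49 and IgG tumours side by side, grouped by role. Core and regulatory particle genes mostly lie near 100, with medians of 114 and 92.7 in GrB-Fc-KS49 tumours, and the assembly chaperones lie lower, with medians of 23.99 and 24.3.

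The interferon-induced subunits that take the places of Psmb5, Psmb6 and Psmb7 in the immunoproteasome were set beside them. Their sum over Psmb8, Psmb9 and Psmb10 was 1107, 709, 398 and 539 CPM over GrB-Fc-KS49 replicates 1 to 4, against 339, 413, 512 and 458 CPM over IgG replicates 1 to 4, with overlap. All 3 were above 0, with a median log2 fold change of 0.82, and Psmb9 was at 148 ± 73.9 CPM in treated and 76.6 ± 13.9 CPM in control tumours (SD, n = 4 each, edgeR adjusted p = 0.0863). In this sum GrB-Fc-KS49 replicate 3 was below IgG replicates 2, 3 and 4, and its Psmb5 level was the second highest of all tumours. Whether the levels of Psmb5, Psmb6 and Psmb7 follow those of the interferon-induced subunits was not tested.

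Partners and regulators of the proteasome that lie outside the name rule were also counted. Of 15 tested partners, 3 were higher and 7 lower at an unadjusted p under 0.05, against 17.3% and 17.8% of all genes tested. The partners had a median log2 fold change of -0.087, and the largest in size was that of Ube3c at -0.545. Sem1, a small lid subunit, was at 157 ± 22.0 CPM in treated and 119 ± 2.07 CPM in control tumours (log2 fold change 0.40) and Pomp, a chaperone of core maturation, at 198.5 ± 44.6 CPM in treated and 147 ± 8.19 CPM in control tumours (0.44), against 87.0 ± 2.85 CPM in treated and 103 ± 4.42 CPM in control tumours (-0.24) for Ecpas, which binds the particle, and 175 ± 22.4 CPM in treated and 228 ± 12.8 CPM in control tumours (-0.38) for Rad23b, a shuttle that brings ubiquitinated substrates. Of 12 regulators of proteasome genes, 0 were higher and 3 lower at that p. They were Nfya (-0.36), a subunit of NF-Y, Nfe2l2 (-0.28), a factor of the antioxidant response, and Ddi2 (-0.24), a protease that activates NFE2L1, while Nfe2l1 itself was at -0.11.

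Of 8 p97 genes, which extract ubiquitinated proteins, 1 was higher and 4 lower, with Plaa at -0.35, Ubxn1 at 0.42 and Faf1 at -0.23. Of 10 peptidase and class I loading genes, 4 were higher and 2 lower, with the cytosolic peptidase Tpp2 at -0.56, and the peptide transporter Tap2 at 0.59 and its partner Tapbp at 0.48. Every count here is at an unadjusted p under 0.05, for which all genes tested gave 17.3% higher and 17.8% lower, and no gene of these lists passed an adjusted p under 0.05 in edgeR's test. Median transcript lengths were 3330 bases for the partners, 3016 for the regulators, 3050 for the p97 genes and 2925.5 for the peptidase and loading genes. Tested genes of 2000 to 4000 bases gave 11.5% higher and 17.7% lower at that p. The part of length in these counts was not tested.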

How the data were processed

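RNA was sequenced from 8 EMT6 tumours, 4 per treatment, from poly(A)-enriched stranded libraries, per the labels' protocols. The submitters' processing notes name bcl2fastq 2.19.1.403, STAR and GRCm39. Which program counted reads, with which annotation and strand setting, is not stated there. The files the authors deposited hold estimated counts per gene and CPM (per 1000000), the second of which was reproduced from those counts after adding 0.0001. Coordinates are those of the deposited table, 1-based on GRCm39.

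The estimated counts were first rounded. After filterByExpr and scaling by the trimmed mean of M-values, they were tested with edgeR 4.0.16 (robust quasi-likelihood F test, R 4.3.3), with Benjamini-Hochberg adjustment over 19718 genes. Standard errors came from the log2 fold change and its F value. The biological coefficient of variation was 27.8%. The test was run on simulated counts with known changes. Their spread between libraries was smaller than in these data, so that check does not cover the spread seen here. Replicate numbers follow accession order and pair nothing. Total counts were 73.98 to 82.6 M per library.

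Per role group, values in every library are given for the 1 tested gene with the smallest unadjusted p in each direction, or 2 in groups of 6 or more, and for the catalytic subunits, Psme1 and Psme2 and the largest change each way; some further genes were named after their values were seen. The members and lists were chosen with earlier results of these data known. Lengths and GC content came from GENCODE M21 by gene identifier, matched for all 48 members and 16661 genes, and their trends were removed with mgcv 1.9.3 as an offset. Promoter windows came from RefSeq for 40 members; Psmb1, Psmb2, Psmb7, Psma8, Psmc3, Psmd3, Psmd7 and Psmg2 had none in the table used. The alternatives were other scalings and filters, DESeq2 1.42.0, limma 3.58.1 (voom with and without sample weights, and log2 of the deposited CPM with pseudocounts of 1 and 0.25), single libraries or both U libraries left out, the U suffix as a covariate, length and GC trends removed, other class definitions and an adjusted p under 0.1. The result of 1 further gene list is not reported here.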

Additional observations from a re-analysis of the deposited data

Results flagged for a closer look

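Of 100 groups of 4 values examined, 4 had a sample far from the other 3 by Dixon's ratio, where chance gives about 1 in 20. Each group held 1 treatment group's values of 1 proteasome gene, of the mean log2 level of the core or regulatory particle, or of their difference. Psmg4 reached 36.3 CPM in GrB-Fc-KS49 replicate 1, above the other 3 treated tumours at 22.2 to 24.5 CPM. Psmc3ip reached 6.92 CPM in the same tumour, above the other 3. Psme3 reached 122 CPM in GrB-Fc-KS49 replicate 4, above the other 3 treated tumours and still below every IgG tumour. Psme4 reached 127 CPM in IgG replicate 1, above the other 3 controls.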

How the results depend on the processing

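No gene passed an adjusted p under 0.05 in edgeR's test, with 6915 genes at an unadjusted p under 0.05, whereas DESeq2 called 4708 genes, limma-voom 1, limma-voom with sample weights 1267 and an adjusted p under 0.1 in edgeR 4952. Leaving out 1 library at a time gave 0 to 3447 called genes, with 1260 without GrB-Fc-KS49 replicate 1 and 3447 without GrB-Fc-KS49 replicate 4; the cause was not tested. The median over proteasome genes was 0.11 to 0.20 with 1 library left out and -0.10 with length and GC trends removed. The core less regulatory particle difference was 0.21 to 0.33 with 1 library left out (0.21 without GrB-Fc-KS49 replicate 1) and 0.051 with trends removed. It was 0.22 for transcripts of 1000 to 2000 bases and 0.30 without Psma8, and the median was 0.16 without the name matches, 3 settings chosen after seeing the data. Genes at an unadjusted p under 0.05 were 14 to 20 higher and 2 to 4 lower with 1 library left out, 11 and 1 with both U libraries left out, where fewer samples were tested, and 3 and 11 with trends removed. Among all genes at that p the share higher was 49.2%, or 61.4% with upper quartile scaling and 55.5% with totals alone. Over the 14486 genes with a length it was 29.2% with trends removed, against 44.9% without that step.

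With trends removed, 21 log2 fold changes turned below 0: Psma1 -0.20, Psma5 -0.076, Psma6 -0.13, Psma7 -0.12, Psmb2 -0.12, Psmb3 -0.16, Psmb5 -0.099, Psmb6 -0.20, Psmb7 -0.17, Psmc4 -0.28, Psmc5 -0.15, Psmd2 -0.002, Psmd4 -0.089, Psmd7 -0.19, Psmd8 -0.14, Psmg1 -0.14, Psmg2 -0.12, Psmg3 -0.14, Psmg4 -0.021, Psmd10 -0.098 and Psmc3ip -0.17. Psmc3 turned above 0 at 0.034 (at least 1 CPM in 4 libraries), 0.020 (totals alone, and log2 of CPM + 0.25), 0.019 (log2 of CPM + 1), 0.056 (upper quartile) and -0.030 to 0.026 with 1 library left out, above 0 in 5 of 8 cases. Psmd7 was -0.008 with sample weights and -0.032 (without GrB-Fc-KS49 replicate 1) to 0.053 with 1 library left out. Psmf1 was -0.014 with sample weights, -0.013 with no filter and -0.031 to 0.055 with 1 library left out, below 0 in 3 of 8 cases. Psmd11 and Psmd14 were 0.007 with upper quartile scaling. The cause was not tested. The other 917 single-gene results kept direction and side of the threshold, and 29 passed it. No paired analysis was possible because the labels carry no shared replicate numbers. Depth limits Psma8 and Psmb11, at under 1 CPM in every library.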
